A study of Homo sapiens with 8 samples.

Results

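The proteasome is built from a set of subunits whose genes share a naming scheme, and their promoters were taken here as a group to describe where endogenous G-quadruplexes (G4s) were mapped. Members were the autosomal protein-coding genes of the GENCODE annotation on hg19 whose symbols begin with PSMA, PSMB, PSMC, PSMD, PSME, PSMF or PSMG followed by a digit. The rule found 49 genes of 19229 autosomal protein-coding genes. A further gene with such a symbol, PSMD10, lies on the X chromosome and was left out by the rule. Among the 49 genes are PSMC3IP, a meiotic recombination factor that partners with PSMC3, and PSME3IP1, an interactor of PSME3. Neither is a proteasome subunit, and 47 genes remained without them. Proteasome assembly factors with a PSMD or PSMG symbol were kept.

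The maps came from G4 ChIP-seq of sonicated, formaldehyde-fixed chromatin with BG4, an antibody against folded G4s. Chromatin was taken from K562 (human chronic myelogenous leukemia) and HepG2 (human hepatocellular carcinoma) cells, each grown without a treatment named in the labels and each represented here by 3 ChIP libraries and 1 input library without antibody. The chromatin of both was treated with RNase A before precipitation, and each line stands for a single cancer cell line rather than for a tissue. The deposited lists merge 8 replicates in K562 and 9 in HepG2, which are technical replicates of 3 independent experiments per line. High confidence means that a peak was shared by at least 5 replicates (K562) or 6 replicates (HepG2), and lower confidence that it was shared by at least 2. The 4 lists hold 9205 high-confidence and 19249 lower-confidence intervals for K562, and 8805 and 28387 for HepG2. An interval carries no height, q-value or replicate number, so depth is unknown, no spread between replicates could be computed, and differences between the lines were described without a test. No list of the input library was used here, so the counts stand without a background from it. Since thresholds and replicate numbers differ between the lines, cells and list construction cannot be told apart as the source of a difference.

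The 26S proteasome degrades proteins that carry ubiquitin chains. Its 20S core is a barrel of 4 stacked rings, with alpha subunits (PSMA genes) at the ends and beta subunits (PSMB genes) inside, and the cutting sites lie on a few beta subunits. The 19S cap recognises, unfolds and feeds substrates into the core by means of a ring of ATPases (PSMC genes) and of non-ATPase subunits (PSMD genes). Other caps open the core without ATP (PSME genes), and dedicated chaperones assemble it (PSMG genes). In most cells the subunit genes are expressed together, and the transcription factor NFE2L1 raises many of them when proteasome activity falls, through antioxidant response elements in their promoters.

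A G4 forms from 4 runs of G that stack into planar tetrads, and a G4 motif was defined here as 4 runs of at least 3 G separated by loops of 1 to 7 bases on either strand. Such a motif was contained in a high-confidence interval at 9 of the 49 genes, and for 7 of them the same motif lay inside the high-confidence intervals of both lines. A motif of each of those 7 genes, of PSMD13 (K562 only) and of PSME3IP1 (HepG2 only) is given below because at these genes a high-confidence interval contains a complete motif. Motifs found only in lower-confidence intervals, as at PSMA4 and PSMC3, are not shown. The 4 runs of 3 G are in capitals, loops are in lower case, and each is written 5′ to 3′ on its G-rich strand (hg19).
PSMC4, chr19:40476884-40476904, minus strand: GGGcGGGacGGGagctgtGGG
PSMD2, chr3:184016860-184016879, plus strand: GGGcGGGgtccgaGGGcGGG
PSMD9, chr12:122326615-122326633, minus strand: GGGcGGGgcttGGGatGGG
PSMD11, chr17:30771382-30771402, minus strand: GGGcgcGGGctgaGGGgtGGG
PSME1, chr14:24605354-24605373, minus strand: GGGtagtGGGgcGGGgaGGG
PSME2, chr14:24616014-24616035, plus strand: GGGaGGGgctaGGGtaagtGGG
PSMG4, chr6:3259085-3259108, minus strand: GGGcgatcccGGGcttGGGttGGG
PSMD13, chr11:236363-236384, minus strand: GGGccGGGgcgccGGGggcGGG
PSME3IP1, chr16:57220200-57220219, plus strand: GGGactgaGGGaGGGctGGG
All 9 lie upstream of the canonical transcript of their gene. The G-rich strand was the strand opposite to that of the gene at each of them apart from PSMD2. PSMD13, PSME2, PSMG4 and PSME3IP1 have a coding neighbour on the other strand, and the G-rich strand is that of the neighbour.

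Each gene was scored by the intervals that shared at least 1 bp with the 1 kb on either side of any of its annotated transcription start sites (TSSs). In K562, 28 of 49 genes (57.1%) had a high-confidence interval there, beside 36.7% of all autosomal protein-coding genes. In HepG2 the number was 25 of 49 (51.0%), beside 32.0% of all genes. A lower-confidence interval only was present at 13 genes in K562 (26.5%, all genes 14.6%) and at 16 in HepG2 (32.7%, all genes 20.8%). Intervals of any confidence lay at 41 of 49 genes (83.7%) in each line, beside 51.3% of all genes in K562 and 52.9% in HepG2. A high-confidence interval was present in both lines at 20 genes (40.8%, all genes 25.3%) and in at least 1 line at 33 genes (67.3%, all genes 43.4%). At all 20 genes, high-confidence intervals of the lines overlapped each other, a share that was not counted over all genes. Of the single high-confidence intervals at members, 63.6% in K562 and 80.8% in HepG2 overlapped one of the other line. At all coding genes these shares were 58.0% and 70.4%. Only 4 genes (8.16%, all genes 39.6%) had no interval in any of the lists. Without PSMC3IP and PSME3IP1 the high-confidence counts were 27 of 47 in K562 and 24 of 47 in HepG2. The set of all genes includes many that neither line need express, and expression was not analysed here.

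**Figure D1:**
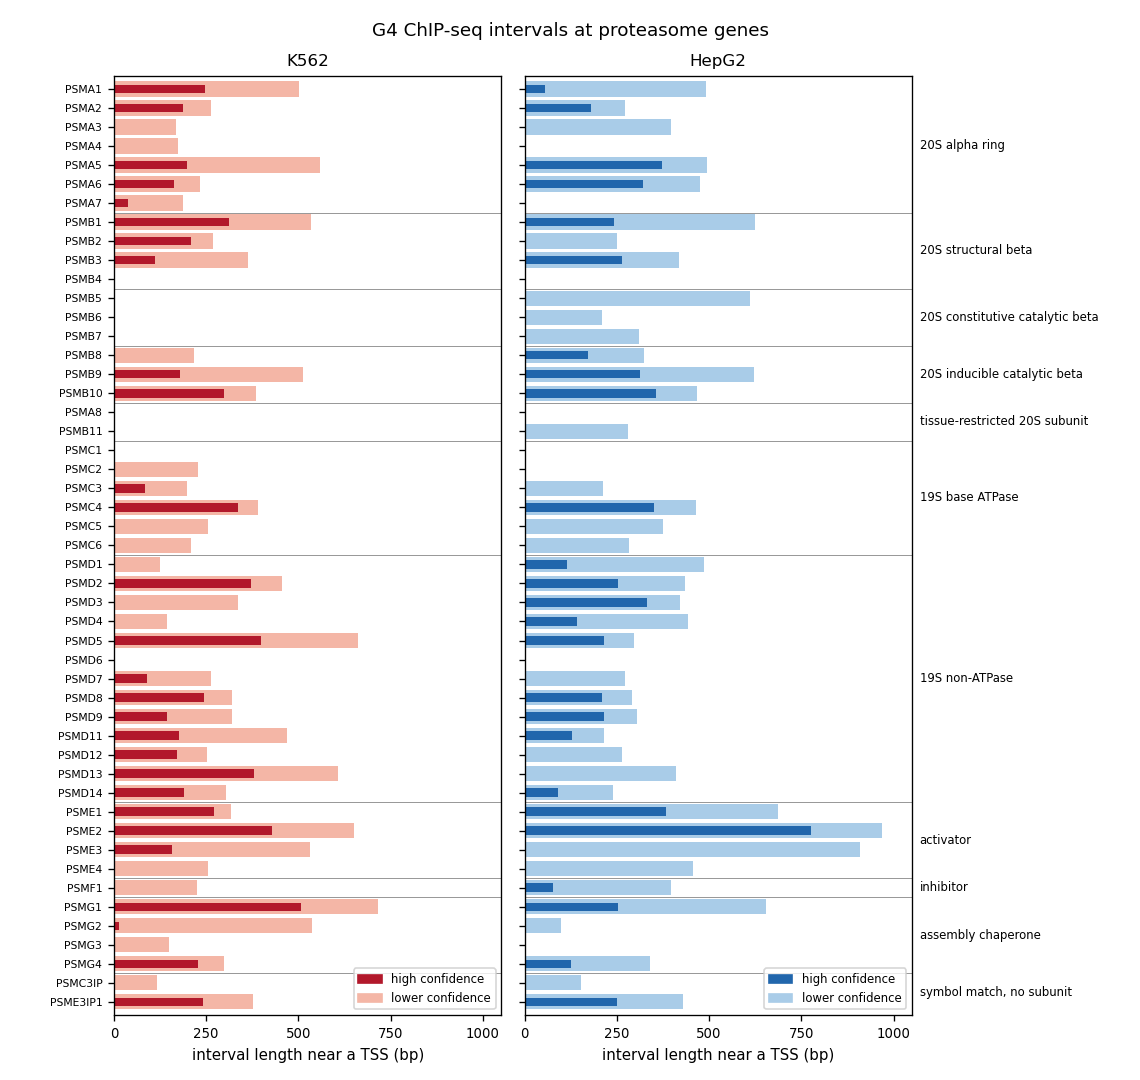
Interval length in bp, summed over the intervals that touch the 1 kb on either side of a TSS of each of the 49 genes, in K562 (left) and HepG2 (right), grouped by role. Dark bars are high-confidence and light bars lower-confidence intervals. The summed high-confidence length is greatest at PSMG1 in K562 (506 bp in 2 intervals) and at PSME2 in HepG2 (777 bp in 2 intervals), whereas the rows of PSMB4, PSMA8, PSMC1 and PSMD6 are empty in both lines.

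Other housekeeping families were scored in the same way. The cytosolic ribosomal protein genes were drawn by symbol. This set lacks RPLP0, RPLP1 and RPLP2. It includes the joined gene models RPL17-C18orf32 and RPS10-NUDT3 and paralogues such as RPL3L and RPL7L1. Of its 80 genes, 39 (48.8%) carried a high-confidence interval in K562 and 44 (55.0%) in HepG2. Of 78 mitochondrial ribosomal protein genes, 38 did in each line (48.7%). Proteasome genes thus held more high-confidence calls in K562 than in HepG2 (28 and 25), as did all genes (7052 and 6161), while the cytosolic ribosomal protein genes had more in HepG2 and the mitochondrial ribosomal protein genes equal numbers. The difference between these orders was not tested.

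**Figure D2:**
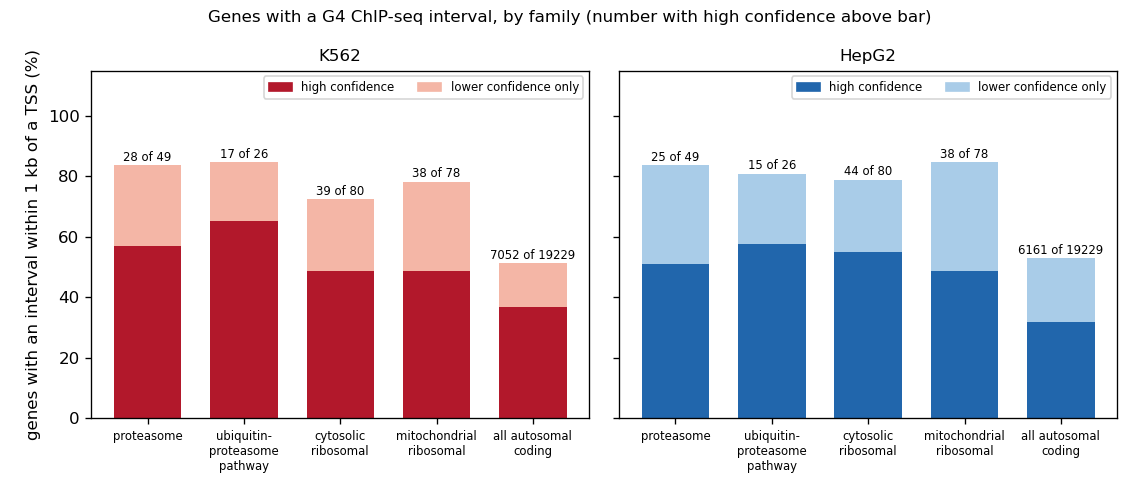
Percentage of genes with an interval within 1 kb of a TSS in K562 (left) and HepG2 (right). Groups are proteasome genes, a chosen list of other ubiquitin-proteasome pathway genes, cytosolic and mitochondrial ribosomal protein genes and all autosomal coding genes. Dark segments are genes with a high-confidence interval (their number stands above the bar) and light segments those with a lower-confidence interval only. The 4 families reach 72.5% to 84.6% in K562 and 78.8% to 84.6% in HepG2, above the 51.3% and 52.9% of all genes.

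The alpha ring genes PSMA1 to PSMA7 encode the outer rings of the core, which gate the entry of substrates. Of these 7 genes, 5 had a high-confidence interval in K562 (all genes 36.7%) and 4 in HepG2 (all genes 32.0%). PSMA1, PSMA2, PSMA5 and PSMA6 had one in both lines. At PSMA5, the K562 interval covered the TSS over 197 bp (chr1:109969047-109969243) and the HepG2 interval over 373 bp (chr1:109969029-109969401). At PSMA6, 163 bp in K562 and 322 bp in HepG2 covered an annotated TSS. PSMA3 had lower-confidence intervals in each line. PSMA4 and PSMA7 had K562 intervals only, at lower confidence for PSMA4 (174 bp) and at high confidence for PSMA7. The high-confidence stretch of PSMA7 measured 37 bp, in the 5′ UTR (chr20:60718385-60718421), inside a lower-confidence interval of 186 bp, and the nearest HepG2 interval of any confidence was 2866 bp from a PSMA7 TSS.

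Among the structural beta subunits, which complete the inner rings without cutting, PSMB1 and PSMB3 had high-confidence intervals in both lines, PSMB2 had one in K562 (209 bp across the TSS) and a lower-confidence one in HepG2, and PSMB4 had none in any list. The nearest lower-confidence interval to a PSMB4 TSS was 26699 bp off in K562 and 26692 bp off in HepG2. PSMB1 had a high-confidence interval over its TSS in K562 (112 bp, chr6:170862327-170862438), which was at lower confidence in HepG2, and the HepG2 call rested on an interval whose near edge lay 858 bp upstream, close to TBP, the divergent neighbour that encodes the TATA-binding protein.

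The constitutive catalytic subunits and the inducible subunits that take their place fell into different classes. PSMB5, PSMB6 and PSMB7 carry the chymotrypsin-like, caspase-like and trypsin-like sites of the standard core. None of the 3 had a high-confidence interval in either line (all genes with one: 36.7% in K562, 32.0% in HepG2). None had an interval of any confidence in K562 (all genes without one: 48.7%), where the nearest were 22288 bp, 5690 bp and 89589 bp from a TSS. In HepG2, each had lower-confidence intervals across a TSS, with 611 bp in 2 pieces at PSMB5, 209 bp at PSMB6 and 310 bp at PSMB7. Lower-confidence intervals only were present at 20.8% of all genes in HepG2. PSMB8, PSMB9 and PSMB10 replace them in the immunoproteasome, the form that interferon induces for antigen processing. All 3 had a high-confidence interval in HepG2, and PSMB9 and PSMB10 also in K562, where PSMB8 had a lower-confidence one of 217 bp. With 3 genes on each side and 1 merged list per line, this contrast is a description.

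The intervals of the inducible genes were not all at the canonical TSS. PSMB8 and PSMB9 lie head to head in the MHC region on chromosome 6. An alternative TSS of PSMB9 is 89 bp from a PSMB8 TSS. The HepG2 high-confidence interval at PSMB8 (chr6:32812366-32812538, 173 bp) covered an alternative TSS of PSMB8 and none of PSMB9. Its centre was at -628 bp from the canonical PSMB8 TSS, and it was counted for PSMB9 too. PSMB9 had a separate high-confidence interval over its own start in each line, 180 bp in K562 (chr6:32821825-32822004) and 139 bp in HepG2 (chr6:32821816-32821954). That region is shared with TAP1, which encodes a subunit of the peptide transporter for antigen presentation and whose TSS lies 332 bp from a PSMB9 TSS on the opposite strand. At PSMB10, the high-confidence intervals of 297 bp (K562, chr16:67969569-67969865) and 356 bp (HepG2, chr16:67969494-67969849) fell in an intron, centred 1036 bp and 1082 bp downstream of the canonical TSS, and covered another annotated PSMB10 TSS.

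The remaining core subunits are restricted in tissue. PSMA8, the testis form of an alpha subunit, had no interval in any list. PSMB11, the thymus-specific catalytic subunit, had no K562 interval and 2 lower-confidence HepG2 intervals of 80 bp and 200 bp, neither of them over the TSS.

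Of the 6 ATPases of the 19S base, 2 had a high-confidence interval in K562 (all genes 36.7%) and 1 in HepG2 (all genes 32.0%). PSMC4 had one in both lines, 336 bp in K562 (chr19:40476786-40477121) and 352 bp in HepG2 (chr19:40476765-40477116), each with the minus-strand motif printed above. PSMC3 had 84 bp at high confidence in K562 and a lower-confidence interval of 213 bp in HepG2. PSMC5 and PSMC6 had lower-confidence intervals in both lines, and PSMC2 in K562 only. PSMC1 had none, the nearest interval lying 64414 bp off in K562 and 64375 bp off in HepG2.

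Of the 13 autosomal PSMD genes, 9 had a high-confidence interval in K562 (all genes 36.7%) and 9 in HepG2 (all genes 32.0%). In at least 1 line 12 had one (all genes 43.4%), and 6 in both (all genes 25.3%). Those 6 were PSMD2, a scaffold of the 19S base, PSMD5 and PSMD9, which chaperone its assembly, PSMD8 and PSMD11, subunits of the lid, and PSMD14, the protease that removes ubiquitin chains from substrates. PSMD5 had the longest K562 high-confidence interval of any member (398 bp, chr9:123605052-123605449), with 214 bp in HepG2. At PSMD2, 370 bp in K562 (chr3:184016738-184017107) and 254 bp in HepG2 contained the plus-strand motif printed above. PSMD1, PSMD3 and PSMD4, the last a ubiquitin receptor, had a high-confidence interval in HepG2 only, of 114 bp, 333 bp and 141 bp. PSMD7, PSMD12 and PSMD13 had one in K562 only, with 89 bp, 172 bp and 379 bp in all. At each of these 6 genes the other line had a lower-confidence interval that overlapped. PSMD6 was the exception, with no interval in any list and the nearest lower-confidence one at a distance of 2261666 bp in K562 and 101279 bp in HepG2.

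PSME1 and PSME2 encode the interferon-inducible activator that caps the core, and both had high-confidence intervals in both lines. PSME1 had 272 bp in K562 (chr14:24605171-24605442) and 383 bp in HepG2 (chr14:24605131-24605513), across the TSS and with a GC content of 74.3% and 74.7%. PSME2 had 2 intervals in each line, 429 bp in all in K562 and 777 bp in HepG2, in a stretch where RNF31, a gene for a ubiquitin ligase subunit, starts 3 bp from a PSME2 TSS on the other strand. PSME3, the nuclear activator, had a K562 high-confidence interval of 156 bp at an alternative TSS 47 bp from that of BECN1, at -9082 bp from its canonical TSS, and lower-confidence intervals at the canonical TSS in both lines. PSME4, the activator that acts in spermatogenesis and DNA repair, had lower-confidence intervals in both lines. PSMF1, the inhibitor PI31, had 77 bp at high confidence across its TSS in HepG2 and 224 bp at lower confidence in K562.

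Of the assembly chaperones, PSMG1 and PSMG4 had high-confidence intervals in both lines. PSMG1 had 2 in K562, of 276 bp and 230 bp, and 1 of 254 bp in HepG2. PSMG4 had 229 bp in K562 and 125 bp in HepG2. PSMG2 counted as high confidence in K562 through a stretch of 14 bp at an alternative TSS, at -44859 bp from the canonical TSS, and HepG2 had 98 bp at lower confidence elsewhere. PSMG3 had a K562 lower-confidence interval of 148 bp and none in HepG2. PSME3IP1 had 240 bp in K562 and 250 bp in HepG2 at high confidence, across a TSS that lies 21 bp from one of RSPRY1, and PSMC3IP had lower-confidence intervals in both lines.

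A high-confidence interval in K562 without one in HepG2 was found at 8 genes (all genes 11.4%), namely PSMA7, PSMB2, PSMC3, PSMD7, PSMD12, PSMD13, PSME3 and PSMG2. The opposite was found at 5 genes (10.2% of members, all genes 6.76%), namely PSMB8, PSMD1, PSMD3, PSMD4 and PSMF1. Most of these 13 genes differed in the confidence of the call and not in its presence. PSMA7 was the only gene with a high-confidence interval in K562 and none of any confidence in HepG2 (2.04%, all genes 3.15%). No gene showed the opposite (all genes 2.54%). At PSMG2, the HepG2 interval lay at another TSS, and no HepG2 interval overlapped the K562 high-confidence stretch. Lower-confidence intervals alone were found in both lines at 5 genes (10.2%, all genes 6.05%), namely PSMA3, PSMC5, PSMC6, PSME4 and PSMC3IP. Intervals of any confidence were confined to K562 at PSMA4, PSMA7, PSMC2 and PSMG3 (8.16%, all genes 7.50%) and to HepG2 at PSMB5, PSMB6, PSMB7 and PSMB11 (8.16%, all genes 9.07%). All 4 genes of the HepG2 set encode catalytic beta subunits and rest on lower-confidence intervals, of which HepG2 has more (28387, K562 19249). Both shares are close to those of all genes, so the make-up of these sets is a description. At the 20 genes with high confidence in both lines the lengths did not favour a line, with more bases in K562 at 10 of them and in HepG2 at 10.

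The high-confidence intervals at these genes numbered 33 in K562 and 26 in HepG2, with 2 intervals at 5 genes in K562 (PSMA1, PSMB1, PSMD13, PSME2 and PSMG1) and at 2 genes in HepG2 (PSMB9 and PSME2). Their median width was 190 bp in K562 (14 to 398) and 229 bp in HepG2 (54 to 398), beside 204 bp and 182 bp for the intervals at all coding genes. Their centres lay at a median of -56.5 bp from the nearest TSS of the gene in K562 and -65.3 bp in HepG2, where negative values are upstream, beside -51.8 bp and -61 bp at all coding genes. In K562, 30 of 33 centres (90.9%) and in HepG2 22 of 26 (84.6%) were upstream of the nearest TSS, beside 79.4% and 78.3%. Against the canonical transcript, 29 K562 centres were upstream, 2 in the 5′ UTR (PSMA7 and PSMB1), 1 in a coding exon (PSMD8) and 1 in an intron (PSMB10). In HepG2, 24 were upstream, with PSMD8 and PSMB10 again the exceptions. An interval covered an annotated TSS of the gene in 20 cases in K562 and 18 in HepG2. Few calls lay near the edge of the window: measured from TSS to interval edge, the farthest genes inside it were PSMD7 in K562 (52 bp) and PSMB1 in HepG2 (858 bp), and the nearest outside it PSMB8 in K562 (5080 bp) and PSMC6 in HepG2 (6102 bp).

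**Figure D3:**
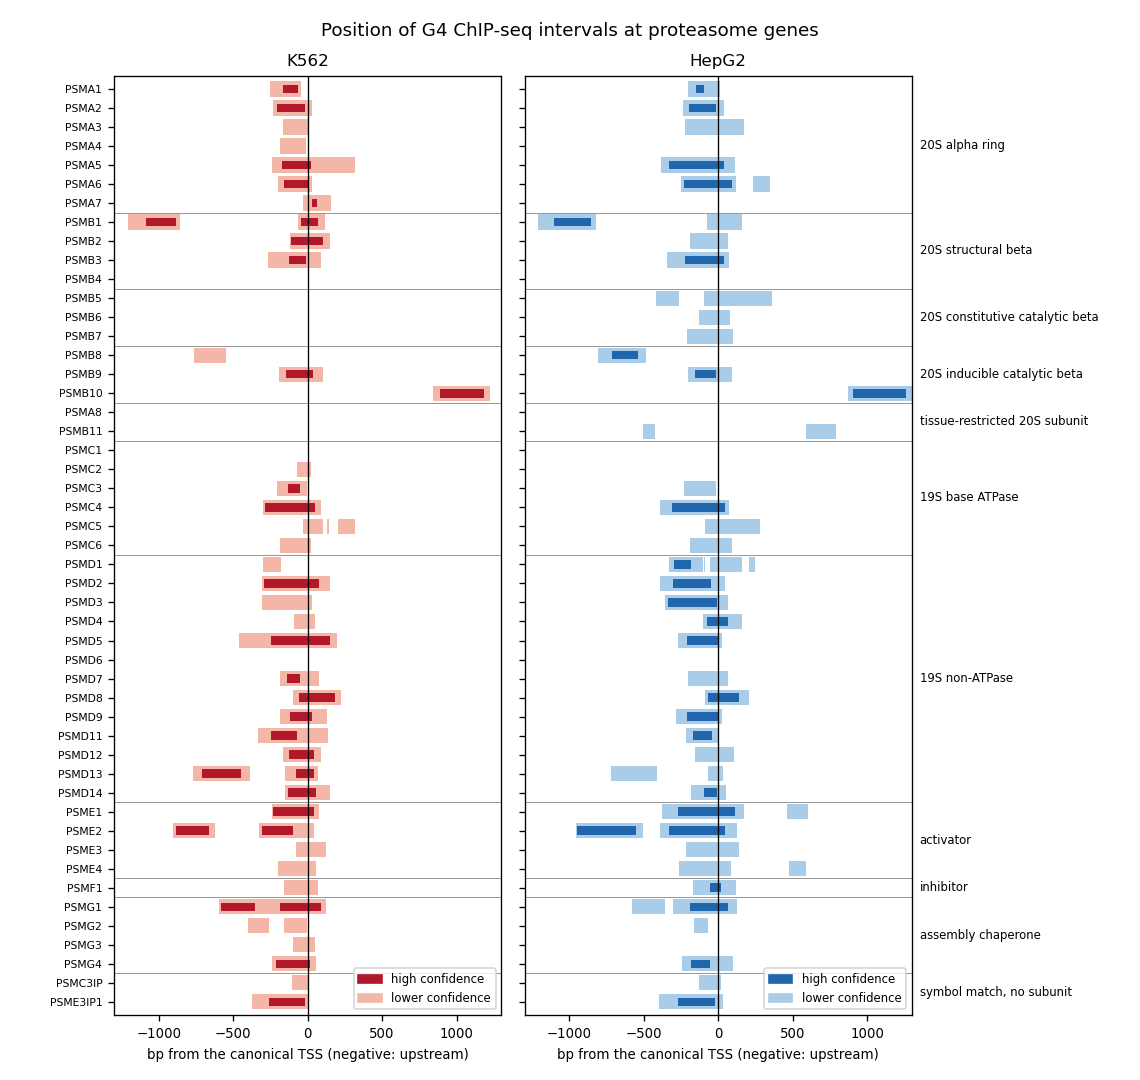
Position in bp of the intervals at each of the 49 genes relative to the canonical TSS (vertical line, negative values upstream) in K562 (left) and HepG2 (right). Dark bars are high-confidence and light bars lower-confidence intervals, and those at distant alternative TSSs are not drawn (3 high-confidence and 5 lower-confidence in K562, 1 and 6 in HepG2). Most bars end at or just past the TSS, whereas those of PSMB8, PSMB10 and the TBP side of PSMB1 stand apart from it.

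A peak in a shared promoter can belong to either gene. A TSS of another protein-coding gene lay within 1 kb of a TSS of the member at 17 of 49 genes (34.7%, all genes 23.8%). These included PDE3B beside PSMA1, MRPL32 beside PSMA2, SS18L1 beside PSMA7, DNAJC2 beside PSMC2, FTSJ3 beside PSMC5, SIRT3 beside PSMD13, ACYP2 beside PSME4, SPIRE1 and CEP76 beside PSMG2 and TUBB2B beside PSMG4. Not all of the 17 share a promoter with a separate named gene. PSMB10 and PSMD9 count only through an unnamed gene model on the same strand (32 bp and 19 bp away). PSMB8 counts only through PSMB9, itself a member. In K562, 13 of these 17 genes (76.5%) had a high-confidence interval, beside 54.5% of all genes with such a neighbour, and in HepG2 10 (58.8%) beside 52.1%. Of the 32 genes without such a neighbour, 15 (46.9%) had one in each line, beside 31.1% of all genes without a neighbour in K562 and 25.8% in HepG2. At PSMA2 and MRPL32, whose TSSs are 191 bp apart, the intervals (187 bp in K562, 179 bp in HepG2) were centred nearer to another gene's TSS than to that of PSMA2. The same was true at PSME3IP1, and PSMD13 had a second K562 interval of 261 bp on the SIRT3 side, which holds the motif printed above and 3 minus-strand motifs in all. When only intervals at least as near to the member as to any other coding gene were kept, high-confidence intervals remained at 24 genes in K562 (all genes 31.6%), at 22 in HepG2 (all genes 27.0%) and at 16 in both (32.7%, all genes 20.3%).

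The promoters of these genes were not richer in G and C than those of other genes. In the stretch from 250 bp before to 50 bp after the canonical TSS, the median GC content was 62.0% over the 49 genes (44.7% at PSMC2 to 80.7% at PSMA7) and 63.7% over all genes. The median ratio of observed to expected CpG was 0.817 beside 0.778. The 20 genes with high confidence in both lines had a median GC content of 62.8%, the 13 with high confidence in 1 line 64.3%, the 12 with lower-confidence intervals only 58.0% and the 4 with none 56.0%. For all genes these medians were 67.7%, 67.3%, 64.3% and 55.3%. Promoters of low GC content without a high-confidence interval included PSMC1 (48.3%), PSMB5 (50.3%), PSMB4 (51.0%), PSMB6 (52.7%) and PSMB7 (58.3%). In contrast, PSMB1 at 49.3% and PSMB10 at 54.0% had high-confidence intervals, and PSME4 at 75.3% and PSMG3 at 73.3% had none. The PSMB10 intervals, however, were centred 1036 bp (K562) and 1082 bp (HepG2) downstream, outside this stretch. Their own GC content was 67.3% and 66.0%. The HepG2 interval of PSMB1 also lay outside it, at -979 bp. The shares by GC class likewise count intervals anywhere in the 1 kb windows. In the class of 50% to 60% GC, 7 of 17 members (41.2%) in K562 and 9 of 17 (52.9%) in HepG2 had a high-confidence interval, beside 20.3% and 25.1% of all genes of that class. From 60% to 70% GC the shares were 13 of 20 (65.0%) and 10 of 20 (50%), beside 47.3% and 44.3%. Within the high-confidence intervals themselves, the median GC content was 67.3% in K562 and 63.7% in HepG2, beside 71.2% and 67.6% at all coding genes.

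**Figure D4:**
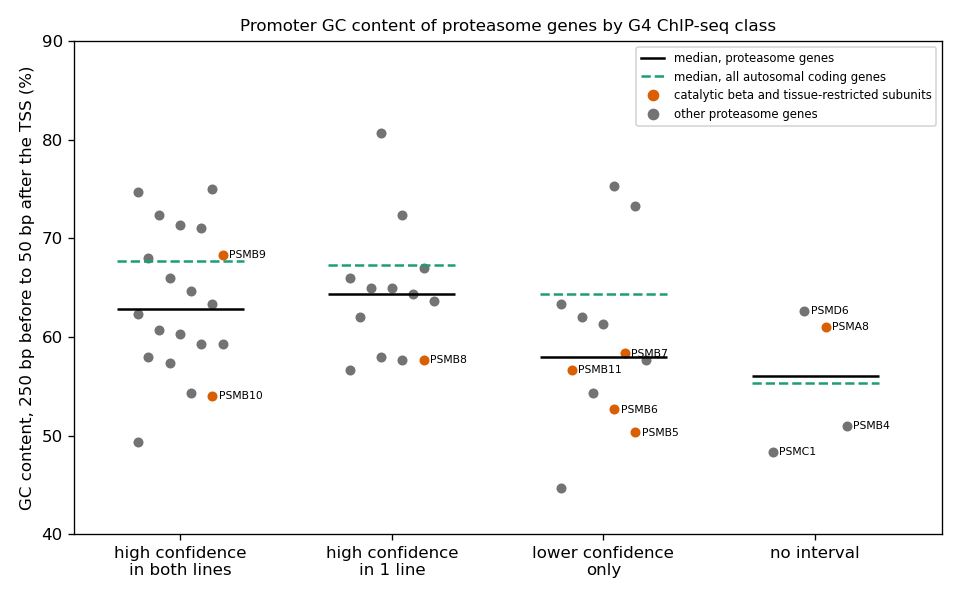
GC content (%) from 250 bp before to 50 bp after the canonical TSS for each of the 49 genes, by the class of their intervals. Points are genes, with catalytic beta and tissue-restricted subunits in orange, solid lines are medians of the proteasome genes and dashed lines those of all autosomal coding genes of the class. The solid lines fall from 62.8% and 64.3% in the high-confidence classes to 56.0% where no interval was found, and PSMB5, PSMB6 and PSMB7 sit at or below 58.3%.

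Complete G4 motifs were present in the 1 kb windows of 35 of 49 genes (71.4%, all genes 76.5%) and in the 300 bp around the canonical TSS of 13 (26.5%, all genes 33.6%), but a high-confidence interval contained one at only 8 genes in each line (16.3%, beside 14.2% of all genes in K562 and 8.98% in HepG2). Among genes with a high-confidence interval, 8 of 28 in K562 (28.6%, all genes 38.8%) and 8 of 25 in HepG2 (32.0%, all genes 28.0%) had a motif in it. In K562 these were PSMC4, PSMD2, PSMD9, PSMD11, PSMD13, PSME1, PSME2 and PSMG4, and in HepG2 PSME3IP1 stood in the place of PSMD13. No alpha or beta subunit gene was among them. Motifs lay only on the strand opposite to the gene at 7 of the 8 K562 intervals and only on the strand of the gene at PSMD2. Among the 2533 K562 intervals with a motif at all coding genes, 40.3% had motifs on the opposite strand only, 49.5% on the strand of the gene only and 10.1% on both. In HepG2 4 intervals had them on the opposite strand, 3 on both strands (PSMD11, PSME1 and PSME2) and 1, again PSMD2, on the strand of the gene, beside 45.1%, 6.46% and 48.4% of the 1502 HepG2 intervals with a motif at all coding genes. With 8 intervals in each line, these strand counts are a description. They also depend on which gene is scored. The motif intervals of PSMD13 (K562), PSME2 (both lines) and PSME3IP1 (HepG2) were centred nearer to a TSS of another coding gene. The coding neighbours of these genes lie on the opposite strand, so an opposite-strand motif there is on the strand of the neighbour. The 4 genes without any interval, PSMB4, PSMA8, PSMC1 and PSMD6, had no motif in their windows. Of the 14 genes without a motif in the windows, 8 (57.1%) had a high-confidence interval in K562, beside 17.5% of all genes without a motif, and 6 (42.9%) in HepG2, beside 18.6%. A motif in the windows without any interval was found at 3 genes in K562 (6.12%, all genes 31.8%) and at 4 in HepG2 (8.16%, all genes 31.2%).

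Short promoter motifs were counted in the same stretch of 300 bp and on both strands. GGGCGG, the GC box bound by SP factors, was present at 35 of 49 genes (71.4%), beside 61.4% of all genes. TGANNNNGC, a loose form of the antioxidant response element core whose open base after TGA also admits sequences that stricter definitions leave out, was present at 31 genes (63.3%, all genes 42.1%), and at 36.2% of the cytosolic and 34.6% of the mitochondrial ribosomal protein genes. CCGGAA, the core of the ETS site, was present at 26 (53.1%, all genes 22.8%), and at 57.5% and 60.3% of those ribosomal protein genes. CCAAT was present at 21 (42.9%, all genes 35.7%). TATAAA was found at 5 genes (10.2%, all genes 9.81%), and a full nuclear respiratory factor 1 site at PSMA4 alone (2.04%, all genes 1.71%). GGGCGG can lie inside a G4 motif, as in the sequences of PSMC4, PSMD2 and PSMD9 above, and a match to letters is not a bound site. PSMB4, PSMB5 and PSMB6, which had no high-confidence interval in either line, had no GC box and few G-runs, with 4, 5 and 7 runs of at least 3 G on either strand, beside medians of 13 over the 49 genes and 15 over all genes. Other members went the other way. PSMG3 and PSME4 had a GC box and 24 and 17 runs without a high-confidence interval. PSMB2 and PSMD8 had no GC box and 6 and 9 runs, and had such an interval. A link was not tested. PSMB4, PSMB5 and PSMB6 each had a TGANNNNGC match just upstream of the TSS. The open base after TGA was A at PSMB4, G at PSMB5 and C at PSMB6, so a stricter definition that fixes it would not keep them all. The matches of the catalytic subunits are shown, with the fixed letters in capitals.
PSMB5, chr14:23504119-23504127, plus strand: TGAgaacGC
PSMB6, chr17:4699440-4699448, plus strand: TGAcagaGC

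Other genes of the ubiquitin-proteasome pathway, outside the naming scheme, were scored in the same way. They are a list chosen with earlier results of these data known, and not the whole pathway. RPS27A is also in the cytosolic ribosomal set. Of the 26 listed genes, 17 (65.4%, all genes 36.7%) had a high-confidence interval in K562 and 15 (57.7%, all genes 32.0%) in HepG2. In both lines, 14 had one (53.8%, all genes 25.3%). These 14 included ADRM1, a ubiquitin receptor of the 19S cap, the proteasome-bound deubiquitinases USP14 and UCHL5, the shuttle factor RAD23B, and NFE2L1 and NFE2L2, which encode factors that bind antioxidant response elements. VCP, the segregase that extracts ubiquitinated proteins, was at high confidence in HepG2 and at lower confidence in K562, and DDI2, the protease that activates NFE2L1, was the other way round. SEM1, a small subunit of the 19S lid, AKIRIN2, which carries proteasomes into the nucleus, and NPLOC4, a cofactor of VCP, had no interval in any list. POMP, the maturation factor of the 20S core, had a lower-confidence interval in K562 only.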

How the data were processed

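G4 ChIP-seq intervals of K562 and HepG2 were taken as deposited, as start and end positions in bp on hg19. According to the methods, the authors trimmed reads with cutadapt, aligned them with BWA, removed duplicates, ran MACS2 (q-value below 0.05) and intersected the peaks of the replicates with bedtools multiinter. An interval is the stretch common to enough replicates and is shorter than a peak. Here, TSSs of all transcripts in GENCODE 44 lifted to GRCh37, whose nuclear chromosomes match hg19, were extended by 1 kb on both sides, and an overlap of at least 1 bp was counted. Genes with several distant TSSs have longer windows (median 5619 bp over the members, 4688 bp over all genes). Canonical transcripts carry the Ensembl tag. Members, roles and lists were chosen with earlier results of these data known. Every member is accounted for by its class in each line, with positions, widths and distances for genes at high confidence in 1 line and without an interval in the other, genes with no interval, the 3 with most high-confidence bases per line, genes that share a promoter and those nearest to an interval in each role. Widths of other members were added after their values were seen. Sequences shown are G4 motifs of at most 30 bases in a high-confidence interval, and the TGANNNNGC matches of PSMB5 and PSMB6, which were chosen after their values were seen. No test was run, because each line has 1 merged list per threshold. Alternatives were other windows, TSS sets, overlap definitions and motif definitions. The overlap and motif functions were checked on simulated data. Tools were matplotlib 3.10.9, samtools 1.23.1, pysam 0.24.0, numpy 2.4.6 and Python 3.11.15.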

Additional observations from a re-analysis of the deposited data

How the results depend on the processing

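Of 67 values under other settings, 63 stayed close to those reported (counts within 1.5 times, median positions within the 95% interval of the median). The definition of a motif moved the rest most. With runs of at least 2 G, a high-confidence interval contained a motif at 23 genes in K562 (46.9%, all genes 34.5%) and 25 in HepG2 (51.0%, all genes 28.7%). Most genes with a high-confidence interval (28 in K562 and 25 in HepG2) thus met this looser definition. The same held over all genes, of which 36.7% in K562 and 32.0% in HepG2 had such an interval. The definition is met almost everywhere: the 1 kb windows of all 49 members and of 99.6% of all genes held such a motif. Measured from the canonical TSS only, the median interval centre was at -84.3 bp in K562 and -105 bp in HepG2. Single calls depended on a choice. PSMA7 and PSMG2 left the K562 high-confidence set without intervals under 50 bp, PSME3 and PSMG2 when only canonical TSSs were used, and PSMB1 left the HepG2 set with windows of 500 bp. Counting only intervals at least as near to the member as to another coding gene removed PSMA2, PSME2, PSME3 and PSME3IP1 in K562 and PSMA2, PSMB1 and PSME3IP1 in HepG2. Replicates could not be left out in turn, since the lists are merged. No paired analysis was possible because the lists carry no replicate values.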
